A study of Mus musculus with 18 samples.

Results

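The report sets IL-33 against IgE as stimuli of wild-type (WT) mouse mast cells. Its members were 6 of the 18 arrays of the series, the 3 arrays of WT cells given IL-33 and the 3 of WT cells activated through IgE, joined by replicate number into 3 pairs. The cells were bone marrow-derived mast cells (BMMCs), grown in culture from the marrow of C57BL/6J mice that were 4 to 6 weeks old. Both groups were stimulated for 4 h, and WT cells left unstimulated (3 arrays) show where each gene started. ST2KO cells, which lack the receptor chain for IL-33, were given the same stimuli (3 arrays with IL-33 and 2 complete ones with IgE) and serve as a second set. The labels give neither the antigen or sensitisation used with IgE, nor the dose of IL-33, nor whether arrays of a group came from separate cultures. Differences between the stimuli therefore hold for these treatments. Their p-values rest only on the spread within all groups of the 17 arrays fitted, ST2KO and unstimulated ones included, and that spread may be technical.

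Mast cells carry the high-affinity IgE receptor, FcεRI. When antigen joins IgE molecules on the surface, the kinases Lyn and Syk phosphorylate its chains and the adaptor LAT. Granules are released, and calcium, NFAT and MAP kinase signals switch on cytokine genes. IL-33 is an alarmin, a cytokine set free by damaged tissue. It binds ST2 and the shared IL-1 receptor accessory chain, which act through MyD88, IRAK kinases and TRAF6 on NF-κB and MAP kinases, and it makes mast cells secrete cytokines with little granule release.

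Transcript levels were measured on Illumina bead arrays and are given as log2 normalized intensity. On the 6 arrays 35.1% to 37% of the 45281 probes were detected above background, and the median intensity before normalization was 86.9 to 97.0. The mast cell label was borne out by its markers: all 10 of those listed were measured, 9 of them on all 6 arrays, and the summed level of the 10 was 17.31 to 17.47 with IgE and 17.36 to 17.48 with IL-33. No probe carried the name of Il1rl1, the gene of ST2, so the genotype labels could not be checked on the targeted gene. The arrays numbered 3 stood apart from those numbered 1 and 2: within a group, arrays 1 and 2 correlated at 0.993 to 0.994 across genes, and either with array 3 at 0.950 to 0.963. Array 3 exceeded the mean of the other two by more than 2-fold in 257 genes, and fell short of it by as much in 157, in both groups alike. Between arrays 1 and 2 that held for 1 gene. Genes are therefore compared within same-numbered pairs.

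Of 9046 genes tested, 946 (10.5%) were higher with IL-33 and 1084 (12%) were higher with IgE, at an adjusted p under 0.05 from limma with the replicate number as a block. At least 2-fold differences were found in 268 genes (2.96%) toward IL-33 and 255 (2.82%) toward IgE. At least 4-fold differences were found in 60 and 29 genes, and at least 8-fold differences in 19 and 6. All 3 pairs ran in the called direction in 923 of the 946 genes and in 1043 of the 1084. The arrays of the groups did not overlap in 2086 genes (23.1%), among them 636 and 725 of those called. Of those called, 19 toward IL-33 and 40 toward IgE were not detected on any array of the other group. They entered the test only through detection in the group where they were high, so their p-values are no separate support. The 95% interval of a gene was typically 0.33 wide on each side (median, log2), and the median difference of all genes was -0.01. Without the block 581 genes passed, 284 toward IL-33 and 297 toward IgE, all among the 2030 and in the same direction. Without the arrays numbered 1 there were 1251, and without those numbered 2 there were 1263. Median scaling in place of quantile normalization moved the median of all genes to -0.12 and gave 609 and 1447 genes, a share toward IL-33 of 29.6% against 46.6%. Without background correction the counts at 2-fold were 129 and 89.

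**Figure D1:**
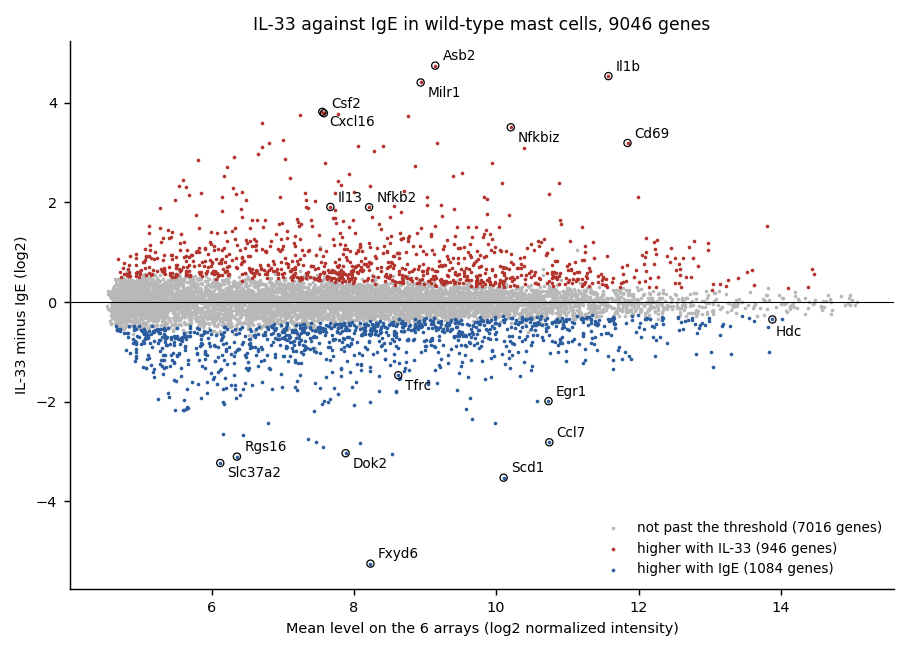
Difference IL-33 minus IgE in WT mast cells (log2, vertical axis) against the mean level on the 6 arrays (log2 normalized intensity, horizontal axis), 1 point per gene. The 946 genes higher with IL-33 are red, the 1084 higher with IgE blue, and the others grey; the widest differences are Asb2 at the top (4.74) and Fxyd6 at the bottom (-5.25).

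The widest difference toward IL-33 was in Asb2, which encodes a substrate adaptor of a ubiquitin ligase. Its level was 11.14, 11.22 and 12.20 on the IL-33 arrays and 5.62, 6.08 and 8.61 on the IgE arrays, against 6.96, 7.63 and 11.07 on the unstimulated arrays. The groups did not overlap, and array 3 was the highest in each of them. The difference was 26.8-fold (log2 4.74 ± 0.34 SE, adjusted p = 1.58e-08), and the IgE arrays lay below their unstimulated partners in all 3 pairs.

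Il1b, the gene of the inflammatory cytokine IL-1β, was at 14.26, 14.25 and 13.03 with IL-33 and at 9.21, 9.37 and 9.35 with IgE. All 3 IL-33 arrays were far above all IgE arrays, and the unstimulated arrays, at 7.57, 7.74 and 8.38, lay below both. The difference was 23.2-fold (4.54 ± 0.24, adjusted p = 4.8e-10). Milr1, which encodes allergin-1, an inhibitory receptor of mast cells, was at 11.24, 11.24 and 10.95 with IL-33 and at 5.85, 6.08 and 8.28 with IgE. Its unstimulated level of 7.45, 7.12 and 9.38 lay between the groups in every pair, so the 21.2-fold difference (4.41 ± 0.36, adjusted p = 5.96e-08) had a part on each side of the starting level.

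Cd69, an early activation antigen gene, had the smallest adjusted p of the comparison. Its level was 13.63, 13.71 and 12.98 with IL-33, 10.49, 10.47 and 9.79 with IgE and 10.70, 10.87 and 10.51 without a stimulus. The IgE arrays were close to the unstimulated ones, and the IL-33 arrays stood 9.14-fold above the IgE arrays (3.19 ± 0.10, adjusted p = 3.95e-13). The B-cell co-receptor gene Cd72 was at 9.82, 9.38 and 8.17 with IL-33 and at 5.48, 5.61 and 5.01 with IgE (3.76 ± 0.21, adjusted p = 9.02e-10).

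The other genes among the 14 widest toward IL-33 were Cxcl16, Csf2, Tnfaip2, Gbp3, Rassf4, Nfkbiz, Rsad2, D17H6S56E-5 and Mylk, with differences of 3.19 to 3.82. Tnfaip2, a TNF-induced gene, was 13.7-fold higher (3.78 ± 0.28, adjusted p = 2.19e-08), and Mylk, the myosin light chain kinase gene, 9.11-fold (3.19 ± 0.18, adjusted p = 9.39e-10). Mylk was detected on 2 of the 3 IgE arrays. Rassf4, which encodes a Ras-association domain protein, was at 8.06, 7.68 and 9.79 with IL-33 and at 4.36, 4.32 and 6.03 with IgE, where arrays 1 and 2 did not detect it. Its fitted difference (3.60 ± 0.24, adjusted p = 6.05e-09) therefore rests on background-level values in 2 of the 3 pairs and is no measured fold. Among the 14, only Rassf4 missed the threshold without the block (adjusted p = 0.0953), and its array 3 was the highest in each group.

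**Figure D2:**
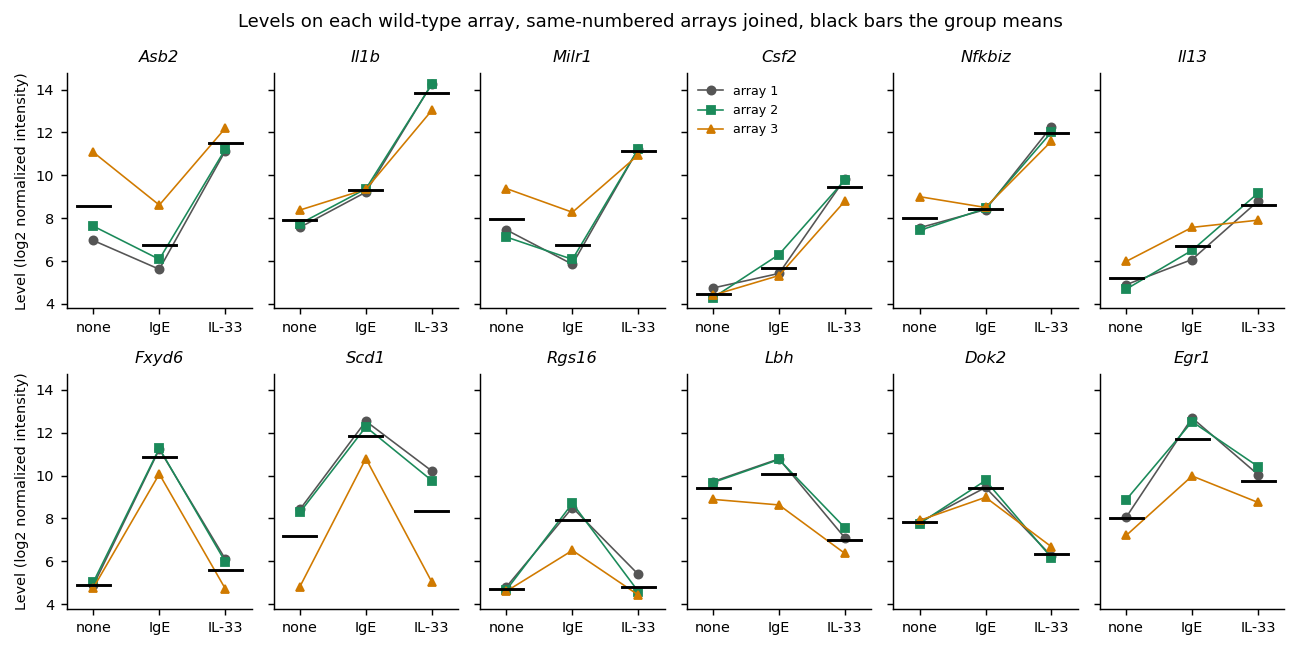
Level of 12 genes (log2 normalized intensity, vertical axis) on the 9 WT arrays by stimulus (horizontal axis: none, IgE, IL-33). Points are single arrays, lines join arrays of the same number, and black bars are group means; Il1b reaches 13.03 to 14.26 with IL-33, and Fxyd6 10.07 to 11.27 with IgE.

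Toward IgE the widest difference was in Fxyd6, the gene of a regulatory subunit of the sodium pump. Its level was 11.23, 11.27 and 10.07 with IgE and 6.11, 5.98 and 4.73 with IL-33. The unstimulated arrays, at 4.88, 5.04 and 4.77, were near the IL-33 arrays, with arrays 1 and 2 about a unit lower and array 3 level with its partner. The difference was 38.1-fold (log2 IL-33 minus IgE -5.25 ± 0.22, adjusted p = 1.53e-11). Scd1, which encodes the desaturase that makes monounsaturated fatty acids, was at 12.54, 12.27 and 10.80 with IgE and at 10.22, 9.77 and 5.04 with IL-33. Array 3 was low in both groups, and the difference (-3.53 ± 0.39, adjusted p = 2.47e-06) missed the threshold without the block (adjusted p = 0.213).

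Slc37a2, a sugar-phosphate transporter gene, was detected on all 3 IgE arrays, at 8.66, 8.69 and 5.86, and on none of the IL-33 or unstimulated arrays. It was at least 8.08-fold higher with IgE, set against the lowest detected level of each IL-33 array (fitted difference -3.23 ± 0.38, adjusted p = 4.77e-06). Slc37a2 entered the test only through its IgE arrays, so this p-value is no separate support. Rgs16, which encodes a protein that shuts off G protein signals, was at 8.51, 8.71 and 6.51 with IgE and at 5.39, 4.59 and 4.43 with IL-33, where 1 of 3 arrays detected it. The groups did not overlap (-3.10 ± 0.30, adjusted p = 3.92e-07).

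Lbh, a transcription cofactor gene, and Dok2, an adaptor gene that restrains Ras signals, lay on both sides of the starting level. Lbh was at 10.78, 10.75 and 8.63 with IgE, 9.72, 9.68 and 8.89 unstimulated and 7.10, 7.56 and 6.37 with IL-33. IL-33 arrays were the lowest in each triple, and the IgE array was the highest in 2 of them (IL-33 minus IgE -3.04 ± 0.20, adjusted p = 7.58e-09). Dok2 was at 9.45, 9.77 and 8.99 with IgE, 7.83, 7.76 and 7.91 unstimulated and 6.25, 6.17 and 6.68 with IL-33. The order held in all 3 triples (-3.04 ± 0.19, adjusted p = 2.4e-09).

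The remaining 8 of the 14 widest differences toward IgE, Auts2, Tm6sf1, Mcf2l, Ccl7, Col18a1, Rpp25, Rln3 and Emp1, ran from -2.90 to -2.42. Rln3 encodes the peptide relaxin-3, and it was not detected on any unstimulated array. Its level was 8.29, 8.51 and 5.64 with IgE and 4.77, 4.95 and 4.79 with IL-33, with array 3 less raised than the others (-2.64 ± 0.38, adjusted p = 4.75e-05). Col18a1, a collagen gene, missed the threshold without the block (-2.75 ± 0.24, adjusted p = 1.29e-07 with it and 0.0965 without).

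Among cytokine and growth factor genes, 12 of the 24 measured were higher with IL-33 and 6 with IgE, with a median difference of 0.42 (5 and 2 without the block). Csf2, the gene of GM-CSF, was at 9.84, 9.79 and 8.80 with IL-33 and at 5.42, 6.30 and 5.33 with IgE. It was detected on 1 of 3 unstimulated arrays, and the groups were 13.8-fold apart (3.79 ± 0.23, adjusted p = 2.63e-09). Il13, a type 2 cytokine gene, was at 8.80, 9.17 and 7.91 with IL-33 and at 6.07, 6.50 and 7.57 with IgE. The third pair was nearly level, and the difference was 3.75-fold (1.91 ± 0.36, adjusted p = 0.000594).

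Il6 and Tnf, genes of inflammatory cytokines, had levels above their unstimulated partners with both stimuli, and the IL-33 arrays were the higher of each pair. Il6 was at 10.39, 10.32 and 10.01 with IL-33, 9.32, 9.54 and 8.79 with IgE and 7.70, 7.51 and 7.09 unstimulated (IL-33 minus IgE 1.02 ± 0.13, adjusted p = 8.76e-06). Tnf was at 8.96, 9.19 and 9.16 with IL-33 and at 8.52, 8.44 and 6.78 with IgE, so much of its difference lay in pair 3 (1.19 ± 0.32, adjusted p = 0.0103). Without the block the adjusted p was 0.0965 for Il6 and 0.106 for Tnf, and Tnf also missed the threshold without WT IgE replicate 3 (0.0943). Il4 differed by 0.75 ± 0.14 (adjusted p = 0.000648, 0.597 without the block), with groups that overlapped.

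The growth factor genes did not run one way. Csf1, the gene of the macrophage growth factor M-CSF, was higher with IgE, at 8.46, 8.43 and 7.10 against 5.62, 5.51 and 5.60 with IL-33. The unstimulated arrays, at 6.47, 6.01 and 6.41, were above all IL-33 arrays (-2.42 ± 0.26, adjusted p = 1.64e-06). Ebi3, which encodes a subunit shared by IL-27 and IL-35, was higher with IL-33 (1.86 ± 0.16, adjusted p = 1.29e-07, 0.227 without the block). Further cytokine genes, named after their values were seen, were Il1a (2.12 ± 0.38, adjusted p = 0.000411), Il15 (1.07 ± 0.20, adjusted p = 0.000517) and Vegfa (1.10 ± 0.14, adjusted p = 1.19e-05) toward IL-33. Tnfsf14, the gene of the TNF family ligand LIGHT (-1.98 ± 0.22, adjusted p = 1.93e-06), and Il33 itself (-1.42 ± 0.23, adjusted p = 0.000174) were higher with IgE. Without the block Vegfa and Tnfsf14 missed the threshold (adjusted p = 0.347 and 0.209). Il33 was not detected on any unstimulated array and was at 6.54, 7.25 and 6.30 with IgE against 5.79, 5.62 and 4.43 with IL-33.

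Of 12 chemokine genes measured, 5 were higher with IL-33 and 3 with IgE (3 and 2 without the block). Cxcl2, a neutrophil attractant, was at 7.78, 7.72 and 7.80 with IL-33 and at 4.41, 4.55 and 5.61 with IgE, where 1 array detected it (2.91 ± 0.21, adjusted p = 1.8e-08). Cxcl16, the ligand of CXCR6, was at 9.85, 9.71 and 8.84 against 5.13, 5.54 and 6.27 (3.82 ± 0.31, adjusted p = 6.13e-08). Ccl5, a T cell attractant, was at 9.98, 10.10 and 9.34 against 6.80, 7.18 and 6.33 (3.04 ± 0.27, adjusted p = 1.99e-07). For each of these 3 genes every IL-33 array was above every IgE array.

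The monocyte attractants Ccl7 and Ccl2 had the opposite order. Ccl7 was at 12.75, 12.88 and 10.83 with IgE, 9.17, 9.24 and 9.61 with IL-33 and 5.84, 6.15 and 7.80 unstimulated, so both stimulated groups lay above rest and IgE above IL-33 (-2.82 ± 0.44, adjusted p = 0.000112). Ccl2 was at 11.09, 11.04 and 10.83 with IgE and at 9.67, 9.57 and 10.11 with IL-33 (-1.21 ± 0.17, adjusted p = 3.29e-05). Ccl3, Ccl4 and Ccl1 had levels above the unstimulated arrays on every stimulated array, and their IL-33 and IgE arrays overlapped or met. Ccl3 was at 12.95, 12.94 and 12.40 with IL-33 and at 11.87, 12.40 and 10.81 with IgE (1.07 ± 0.31, adjusted p = 0.0173). Its call was lost without the block (adjusted p = 0.339) and when any of WT IgE replicate 1 or 3 or WT IL-33 replicate 1 or 2 was left out (adjusted p up to 0.186). Ccl1 differed by 1.04 ± 0.38 (adjusted p = 0.0613) and passed without WT IL-33 replicate 3 (1.66, adjusted p = 0.000655). Ccl4 differed by 0.18 ± 0.15 (adjusted p = 0.427).

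NF-κB is a family of paired transcription factors that inhibitors (IκB proteins) hold in the cytoplasm until a kinase complex releases them, and the inhibitors are among its own target genes. Of 25 NF-κB pathway and target genes measured, 19 were higher with IL-33 and 0 with IgE, with a median difference of 1.13 against -0.01 over all genes. Without the block the counts were 14 and 0, and with median scaling 16 and 1. Nfkbia, the gene of IκBα, was at 12.08, 12.01 and 11.75 with IL-33 and at 8.32, 8.73 and 9.49 with IgE. The unstimulated arrays, at 7.42, 7.57 and 9.18, were below their IgE partners, and the groups were 8.57-fold apart (3.10 ± 0.25, adjusted p = 6.18e-08). Nfkbiz, which encodes the nuclear inhibitor-like protein IκBζ, was at 12.27, 12.01 and 11.59 with IL-33 and at 8.40, 8.45 and 8.5 with IgE (3.51 ± 0.27, adjusted p = 2.92e-08).

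Nfkb2, the gene of the p100 subunit, was at 9.5, 9.47 and 8.53 with IL-33, 7.61, 7.11 and 7.07 with IgE and 6.04, 5.84 and 6.27 unstimulated (1.90 ± 0.21, adjusted p = 2.04e-06). The 3 groups did not overlap. Icam1, an adhesion receptor gene, was 4.33-fold higher with IL-33 (2.11 ± 0.19, adjusted p = 2.5e-07), and Sqstm1, the gene of the autophagy receptor p62, 2.28-fold (1.19 ± 0.12, adjusted p = 7.47e-07). Named after their values were seen, Traf1 (2.58 ± 0.33, adjusted p = 1.22e-05), Bcl3 (2.29 ± 0.26, adjusted p = 2.61e-06), Map3k8 (2.05 ± 0.23, adjusted p = 2.61e-06), Nfkbie (1.71 ± 0.17, adjusted p = 9.28e-07) and Relb (1.62 ± 0.27, adjusted p = 0.00017) were also higher with IL-33. Cyld (0.27 ± 0.13, adjusted p = 0.165) and Nfkbid (0.26 ± 0.14, adjusted p = 0.216) did not pass, although their groups did not overlap. Zc3h12a, the gene of regnase-1, a ribonuclease that degrades inflammatory mRNAs, was 8.81-fold higher with IL-33 (3.14 ± 0.32, adjusted p = 1.04e-06). It was 1 of 16 mRNA decay factor genes measured, of which 2 were higher with IL-33 and 1 with IgE (1 and 0 without the block). The share of that list past the threshold was 18.8%, below the 22.4% of all genes tested.

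The promoters of Nfkbia, Nfkb2 and Cxcl2 are shown because these genes were among those higher with IL-33 and carry matches to the NF-κB motif next to their start sites. They are RefSeq promoter windows of 300 bases (250 before to 50 after the start), build GRCm38.p6, read 5′ to 3′ on the strand of the gene. Capitals mark matches to the motifs searched on both strands: the NF-κB consensus, the interferon element ISRE (a pair of GAAA with any 2 bases between them), AP-1 (TGANTCA), EGR (GCGNGGGCG), CRE (TGACGTCA) and the sterol element (TCACNCCAC). In these 3 windows the only matches were to NF-κB, with overlapping pairs in Nfkb2 and Cxcl2.
Nfkbia (chr12:55492598-55492897, minus strand): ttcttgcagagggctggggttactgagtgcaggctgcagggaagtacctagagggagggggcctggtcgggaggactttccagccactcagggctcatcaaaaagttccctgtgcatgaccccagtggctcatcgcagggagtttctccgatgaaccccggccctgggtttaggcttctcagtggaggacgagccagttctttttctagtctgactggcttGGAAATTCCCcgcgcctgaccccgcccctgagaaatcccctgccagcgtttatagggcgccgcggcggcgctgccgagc
Nfkb2 (chr19:46304487-46304786, plus strand): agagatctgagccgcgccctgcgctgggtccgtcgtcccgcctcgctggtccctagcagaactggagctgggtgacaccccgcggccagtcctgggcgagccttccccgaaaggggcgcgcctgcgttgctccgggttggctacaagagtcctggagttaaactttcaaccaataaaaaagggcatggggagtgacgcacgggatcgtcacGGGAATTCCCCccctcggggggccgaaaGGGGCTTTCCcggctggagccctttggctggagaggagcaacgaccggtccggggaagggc
Cxcl2 (chr5:90903649-90903948, plus strand): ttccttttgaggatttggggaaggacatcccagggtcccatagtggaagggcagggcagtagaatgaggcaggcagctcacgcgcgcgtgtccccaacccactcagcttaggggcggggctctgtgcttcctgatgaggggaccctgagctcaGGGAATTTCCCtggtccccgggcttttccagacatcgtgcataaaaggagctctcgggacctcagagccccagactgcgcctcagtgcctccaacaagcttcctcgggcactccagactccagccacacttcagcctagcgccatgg
The first bases of the matches lay at position -29 from the start in Nfkbia, at -39, -38 and -11 in Nfkb2, and at -97 and -96 in Cxcl2. Nfkb2 has 2 further start sites in the table, which also hold matches. A match is a description of the letters, not a measured binding site. The motif is not particular to genes higher with IL-33: Csf1 and Fosl2, both higher with IgE, hold a match at -154 and -182. Cyld and Nfkbid, which did not pass, also hold matches.

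Across genes with a promoter in the table, counting a gene if any of its start sites held a match, the NF-κB motif stood in 13.1% of the 213 genes at least 2-fold higher with IL-33, in 5.97% of the 201 at least 2-fold higher with IgE and in 6.67% of the 7431 tested. The ISRE motif stood in 8.92%, 2.99% and 3.77%, and the AP-1 motif in 10.3%, 13.4% and 6.27%. For EGR the shares were 15%, 13.9% and 12.3%, for CRE 2.35%, 1.49% and 3.77%, and for the sterol element 1.41%, 0.995% and 1.36%. These shares were not tested.

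Of 19 interferon response genes measured, 13 were higher with IL-33 and 0 with IgE, with a median difference of 0.75 (12 and 0 with median scaling, 3 and 0 without the block). Gbp3, a guanylate-binding protein gene of antimicrobial defence, was at 10.69, 10.65 and 10.53 with IL-33 and at 6.19, 6.09 and 8.41 with IgE. Array 3 was raised in the IgE and unstimulated groups but not with IL-33, and the groups did not overlap (3.72 ± 0.38, adjusted p = 7.56e-07). Rsad2, the gene of the antiviral enzyme viperin, was at 9.20, 9.05 and 7.66 with IL-33 and at 4.66, 4.98 and 6.51 with IgE. With IgE 2 of 3 arrays detected it, and pair 3 differed least (3.25 ± 0.47, adjusted p = 4.85e-05). Its unstimulated arrays were at 5.38, 5.64 and 7.70, so IL-33 array 3 was level with its partner and the IgE arrays lay below theirs.

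Gbp2 (2.17 ± 0.21, adjusted p = 5.06e-07), Usp18, a brake on interferon receptor signalling (1.76 ± 0.16, adjusted p = 2.38e-07), and Irf1, an interferon-regulated transcription factor gene (1.04 ± 0.15, adjusted p = 4.8e-05), were also higher with IL-33. Without the block their adjusted p was 0.0596, 0.0637 and 0.218. Irf1 had a mean level of 9.40 with IgE, 10.44 with IL-33 and 11.04 unstimulated, so both stimulated means were below the resting one. The proteasome genes Psmb9 (0.26 ± 0.14, adjusted p = 0.204) and Psmb8 (-0.13 ± 0.11, adjusted p = 0.416) did not pass. The promoters of Gbp3 and Gbp2 are shown as windows of the same kind that hold ISRE matches.
Gbp3 (chr3:142559794-142560093, plus strand): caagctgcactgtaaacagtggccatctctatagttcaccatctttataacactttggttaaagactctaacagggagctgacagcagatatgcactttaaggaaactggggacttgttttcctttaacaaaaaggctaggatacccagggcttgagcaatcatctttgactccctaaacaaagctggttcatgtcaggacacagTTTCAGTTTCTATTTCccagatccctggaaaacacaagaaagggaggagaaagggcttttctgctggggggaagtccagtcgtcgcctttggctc
Gbp2 (chr3:142620413-142620712, plus strand): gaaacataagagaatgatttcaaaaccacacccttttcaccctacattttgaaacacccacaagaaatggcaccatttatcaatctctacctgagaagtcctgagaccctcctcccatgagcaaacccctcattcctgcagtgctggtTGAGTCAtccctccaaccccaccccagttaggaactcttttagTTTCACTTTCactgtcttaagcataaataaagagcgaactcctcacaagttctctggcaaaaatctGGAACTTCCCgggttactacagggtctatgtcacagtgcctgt
In Gbp3 the ISRE matches began at -45 and -39 and overlapped, and a second start site in the table held none. In Gbp2 an AP-1 match began at -102, an ISRE match at -59 and an NF-κB match at 8.

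**Figure D3:**
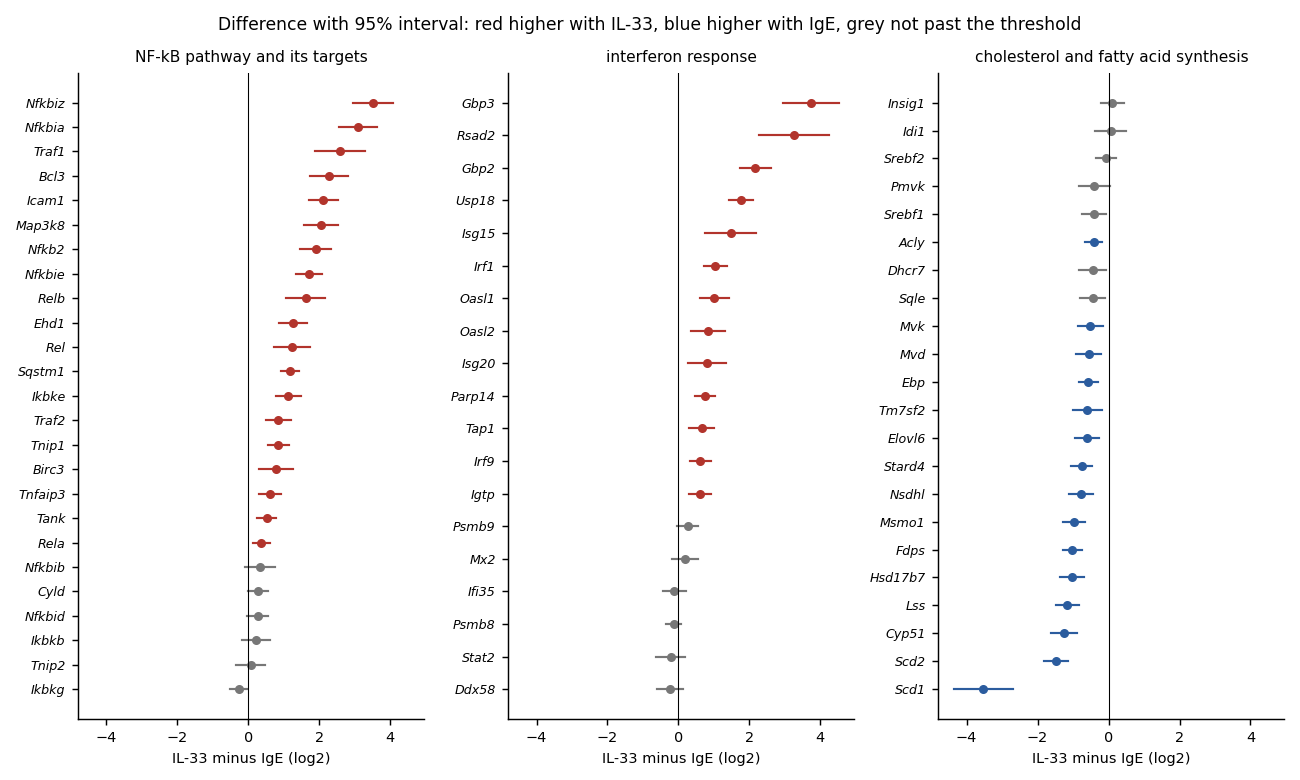
Difference IL-33 minus IgE (log2, horizontal axis) with its 95% interval for each measured gene of 3 lists (vertical axis). Red genes were higher with IL-33, blue with IgE, and grey genes did not pass; 19 of 25 NF-κB genes and 13 of 19 interferon genes are red, and 15 of 22 cholesterol and fatty acid synthesis genes are blue.

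Genes of the IgE receptor and its proximal signalling chain were higher with IL-33 in 6 cases and with IgE in 4, of 22 measured (3 and 3 without the block, 4 and 6 with median scaling). The receptor chain genes Fcer1a (0.12 ± 0.09, adjusted p = 0.408) and Fcer1g (-0.19 ± 0.09, adjusted p = 0.139) did not pass, although their groups did not overlap. Fcer1a was at 14.72 to 14.94, near the top of the normalized range, so its missing call says little. With median scaling Fcer1g passed toward IgE (-0.35, adjusted p = 0.0185). The β chain gene Ms4a2, named after its values were seen, was higher with IL-33 (0.68 ± 0.14, adjusted p = 0.00122). Ms4a2 had a mean level of 10.96 with IgE, 11.65 with IL-33 and 11.84 unstimulated. Syk, the kinase gene, named after its values were seen, differed the same way (0.86 ± 0.17, adjusted p = 0.000909), and so did Vav1, an exchange factor gene (0.75 ± 0.11, adjusted p = 3.78e-05). Fyn (-1.51 ± 0.18, adjusted p = 6.13e-06) and Btk (-0.71 ± 0.10, adjusted p = 4.54e-05), both kinase genes, were higher with IgE. Btk was at 12.37, 12.51 and 12.30 with IgE and at 11.54, 11.64 and 11.87 with IL-33, and the unstimulated arrays, at 12.56, 12.70 and 12.52, were close to the IgE arrays.

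Of 19 genes of the IL-1 receptor family and MyD88 pathway, through which IL-33 signals, 2 were higher with IL-33 and 6 with IgE (0 and 1 without the block). Myd88 itself differed by -0.06 ± 0.10 (adjusted p = 0.766). Peli1, a ubiquitin ligase gene of the pathway, was at 7.89, 7.82 and 7.32 with IgE and at 6.79, 6.73 and 6.55 with IL-33 (-0.99 ± 0.16, adjusted p = 0.000131). Il1r2, a decoy receptor gene (-1.08 ± 0.17, adjusted p = 8.74e-05), and Tollip, an inhibitor gene (-0.69 ± 0.10, adjusted p = 6.57e-05), were also higher with IgE, and the kinase gene Irak2 was higher with IL-33 (1.22 ± 0.14, adjusted p = 3.98e-06). These last 3 missed the threshold without the block (adjusted p = 0.402, 0.217 and 0.253). Irak2 had a mean level of 8.15 with IgE, 9.37 with IL-33 and 9.41 unstimulated, so the IgE mean was the one away from rest.

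Immediate-early transcription factor genes split: of 21 measured, 6 were higher with IgE and 2 with IL-33 (2 and 1 without the block). The 6 and 2 make 38.1% of the list, against 22.4% of all genes tested. Egr1 was at 12.69, 12.52 and 9.98 with IgE, 10.05, 10.42 and 8.75 with IL-33 and 8.06, 8.87 and 7.21 unstimulated. The IgE array was the highest of every numbered triple, although IgE array 3 lay below IL-33 arrays 1 and 2 (-1.99 ± 0.26, adjusted p = 1.27e-05, 0.0848 without the block). Egr2 did not follow it, at 11.62, 11.43 and 9.73 with IL-33 and 10.68, 10.80 and 9.68 with IgE (0.54 ± 0.29, adjusted p = 0.215), although it passed without WT IL-33 replicate 3 (1.02, adjusted p = 0.00429). Fosl2, an AP-1 member (-0.89 ± 0.14, adjusted p = 0.000132), was higher with IgE, and Ier3, a gene of stress survival, with IL-33 (0.66 ± 0.10, adjusted p = 8.91e-05). Klf2 was also higher with IgE (-1.49 ± 0.25, adjusted p = 0.000215, 0.21 without the block), with both stimulated means, 6.32 and 4.83, below the resting 6.91.

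Genes of MAP kinase phosphatases, RGS proteins and related feedback inhibitors were higher with IgE in 8 of 23 cases and with IL-33 in 4 (4 and 2 without the block). Dusp6, a phosphatase gene specific for ERK, was at 10.91, 10.98 and 9.87 with IgE, 9.01, 9.22 and 7.77 with IL-33 and 8.96, 9.23 and 7.87 unstimulated. The IL-33 arrays lay close to their unstimulated partners, and the IgE arrays were above both (-1.92 ± 0.11, adjusted p = 1.06e-09, 0.11 without the block). Rgs1 was higher with IgE as well (-1.21 ± 0.11, adjusted p = 2.19e-07). Socs3, a brake on cytokine receptors named after its values were seen, was higher with IL-33 (1.6 ± 0.25, adjusted p = 0.000117).

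Slc37a2 and Emp1, the latter the gene of an epithelial membrane protein, had AP-1 matches near their start sites, the AP-1 dimer being a target of MAP kinase signals. Emp1 was at 11.56, 11.83 and 10.18 with IgE and at 9.03, 9.05 and 8.21 with IL-33 (-2.42 ± 0.39, adjusted p = 0.000127). The windows are shown because both genes are among the 14 widest toward IgE, but the motif is not particular to that side: Rsad2 and Mylk, among the 14 widest toward IL-33, also hold an AP-1 match, at -87 and -64.
Slc37a2 (chr9:37255689-37255988, minus strand): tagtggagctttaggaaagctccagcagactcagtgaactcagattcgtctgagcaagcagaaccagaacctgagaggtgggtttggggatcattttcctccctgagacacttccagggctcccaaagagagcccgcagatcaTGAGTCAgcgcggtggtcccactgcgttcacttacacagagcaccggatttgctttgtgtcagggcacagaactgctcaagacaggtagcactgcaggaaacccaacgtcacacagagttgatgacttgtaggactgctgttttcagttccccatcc
Emp1 (chr6:135362681-135362980, plus strand): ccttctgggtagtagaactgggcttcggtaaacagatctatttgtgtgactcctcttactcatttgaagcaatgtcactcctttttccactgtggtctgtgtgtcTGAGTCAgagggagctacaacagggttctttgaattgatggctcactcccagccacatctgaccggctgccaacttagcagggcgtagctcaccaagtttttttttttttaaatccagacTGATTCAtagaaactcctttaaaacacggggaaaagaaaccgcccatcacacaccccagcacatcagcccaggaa
The AP-1 match began at -107 in Slc37a2, and the matches began at -145 and -25 in Emp1, whose second start site in the table held none.

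Surface receptors differed in both directions, with 10 of 28 inhibitory receptor and surface marker genes higher with IL-33 and 9 with IgE (6 and 4 without the block). Cd33, the gene of a sialic acid-binding inhibitory receptor, was at 10.62, 10.78 and 10.56 with IgE, 8.52, 8.51 and 8.5 with IL-33 and 8.46, 8.98 and 8.65 unstimulated. Only the IgE group stood away from rest (-2.14 ± 0.12, adjusted p = 1.19e-09). Fcgr2b, the inhibitory receptor for IgG, was at 7.75, 7.87 and 7.66 with IgE, 9.48, 9.66 and 9.55 with IL-33 and 9.85, 9.83 and 9.47 unstimulated. Here too the IgE arrays stood away from rest, but below it (1.80 ± 0.12, adjusted p = 4.8e-09). Named after their values were seen, the tetraspanin gene Cd82 (2.39 ± 0.25, adjusted p = 1.2e-06) and the adhesion gene Icam2 (1.39 ± 0.13, adjusted p = 4.75e-07) were higher with IL-33.

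Of 21 growth factor and cytokine receptor genes, 6 were higher with IL-33 and 4 with IgE (2 and 5 with median scaling, 1 and 1 without the block). Il10ra, the IL-10 receptor chain, was higher with IgE (-1.37 ± 0.15, adjusted p = 1.6e-06), and Tgfbr2 with IL-33 (0.92 ± 0.11, adjusted p = 6.96e-06). Il2ra, the α chain of the IL-2 receptor, was also higher with IL-33 (1.91 ± 0.24, adjusted p = 1.15e-05, 0.13 without the block). Kit, the receptor gene for stem cell factor, did not pass (0.15 ± 0.10, adjusted p = 0.328).

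Of 19 mediator receptor genes of the G protein-coupled class, 7 were higher with IgE and 5 with IL-33 (2 and 1 without the block). The complement receptor genes C5ar1 and C5ar2 were both higher with IgE. C5ar1 was at 6.57, 6.62 and 5.74 on the IgE arrays and was not detected on any IL-33 or unstimulated array, a difference of at least 3.01-fold (fitted -1.83 ± 0.20, adjusted p = 2.21e-06). It entered the test only through its IgE arrays. C5ar2 differed by -2.05 ± 0.19 (adjusted p = 2.44e-07). Ccrl2, a chemerin-binding receptor gene, was higher with IL-33 (1.66 ± 0.18, adjusted p = 1.59e-06), with a mean of 6.37 with IgE, 8.02 with IL-33 and 8.24 unstimulated. In the TNF receptor list of 13 measured genes, 4 were higher with IL-33, among them Tnfrsf1b (1.64 ± 0.29, adjusted p = 0.000327), and 3 with IgE, among them the ligand gene Tnfsf8 (-1.33 ± 0.19, adjusted p = 3.97e-05). Without the block 1 passed in each direction.

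Of 22 cholesterol and fatty acid synthesis genes measured, 15 were higher with IgE and 0 with IL-33, with a median difference of -0.58 (17 and 0 with median scaling). Without the block 1 passed. Array 3 was low for these genes in each group: Cyp51, a demethylase gene of sterol synthesis, was at 9.76, 9.79 and 7.85 with IgE, 8.77, 8.80 and 6.05 with IL-33 and 7.63, 7.62 and 5.30 unstimulated. Within every numbered triple the order was IgE, IL-33, unstimulated, although the groups overlapped (-1.26 ± 0.17, adjusted p = 2e-05, 0.572 without the block). Fdps, the gene of farnesyl diphosphate synthase, had the same order in every triple (-1.03 ± 0.13, adjusted p = 9e-06, 0.625 without the block). Scd2, at 9.47, 9.38 and 8.42 with IgE and 7.89, 7.74 and 7.21 with IL-33, passed both ways (-1.48 ± 0.16, adjusted p = 1.87e-06, 0.0134 without the block). Srebf2, the regulator gene of the pathway, differed by -0.07 ± 0.14 (adjusted p = 0.782).

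Of 21 ATF4-axis and amino acid synthesis genes, 9 were higher with IgE, 1 was higher with IL-33 and 11 did not pass, with a median difference of -0.08 (4 and 1 without the block). Psat1, of serine synthesis, was at 8.89, 9.10 and 9.06 with IgE, 7.76, 8.0 and 7.84 with IL-33 and 7.06, 7.68 and 7.16 unstimulated. The 3 IgE arrays were close together and above all others (-1.15 ± 0.13, adjusted p = 4.23e-06). Phgdh, the preceding enzyme, was detected with IgE only, at least 1.93-fold higher (fitted -1.14 ± 0.17, adjusted p = 8.06e-05). Phgdh thus entered the test only through its IgE arrays. Aldh18a1, of proline synthesis, differed by -1.76 ± 0.21 (adjusted p = 4.79e-06). The exception was Slc7a11, the cystine transporter gene, which was higher with IL-33 (1.42 ± 0.19, adjusted p = 2.38e-05). Atf4 itself differed by -0.05 ± 0.13 (adjusted p = 0.834).

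In iron handling, Tfrc, the transferrin receptor gene, was at 9.33, 9.46 and 9.29 with IgE, 8.21, 8.51 and 6.95 with IL-33 and 7.12, 7.19 and 5.90 unstimulated. Both stimulated groups were above rest and IgE above IL-33 (-1.47 ± 0.21, adjusted p = 4.21e-05). Steap3, an iron reductase gene, differed the same way (-1.16 ± 0.17, adjusted p = 5.18e-05), while the ferritin genes Fth1 (-0.05 ± 0.08, adjusted p = 0.724) and Ftl1 (0.06 ± 0.09, adjusted p = 0.688) did not pass. In the list of 11 measured genes 2 were higher with IgE and 1 with IL-33, a share of 27.3% against 22.4% of all genes tested. Of 20 glycolysis and hypoxia genes 1 was higher with IL-33 and 2 with IgE (1 and 5 with median scaling, 0 and 0 without the block). The 1 and 2 make 15% of the list, below the 22.4% of all genes tested. Of 5 pentose phosphate genes 2 were higher with IL-33, led by Rpe (1.03 ± 0.19, adjusted p = 0.000559), and 1 without the block.

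Solute carrier and ion pump genes were higher with IL-33 in 7 and with IgE in 7 of 26 cases (4 and 1 without the block). Besides Fxyd6, the genes with the smallest adjusted p were Atp13a3, a polyamine transporter gene (1.32 ± 0.13, adjusted p = 5.46e-07), and Slc6a4, the serotonin transporter gene. Slc6a4 was at 9.73, 9.69 and 8.76 with IL-33, 6.89, 7.21 and 7.11 with IgE and 6.45, 6.25 and 6.85 unstimulated (2.33 ± 0.23, adjusted p = 6.35e-07). Tph1, the gene of the enzyme that starts serotonin synthesis, was also higher with IL-33, at 14.47, 14.63 and 14.59 against 12.86, 13.12 and 13.14 (1.52 ± 0.11, adjusted p = 2.19e-08). Its unstimulated arrays, at 13.44, 13.48 and 14.04, lay between the stimulated groups.

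**Figure D4:**
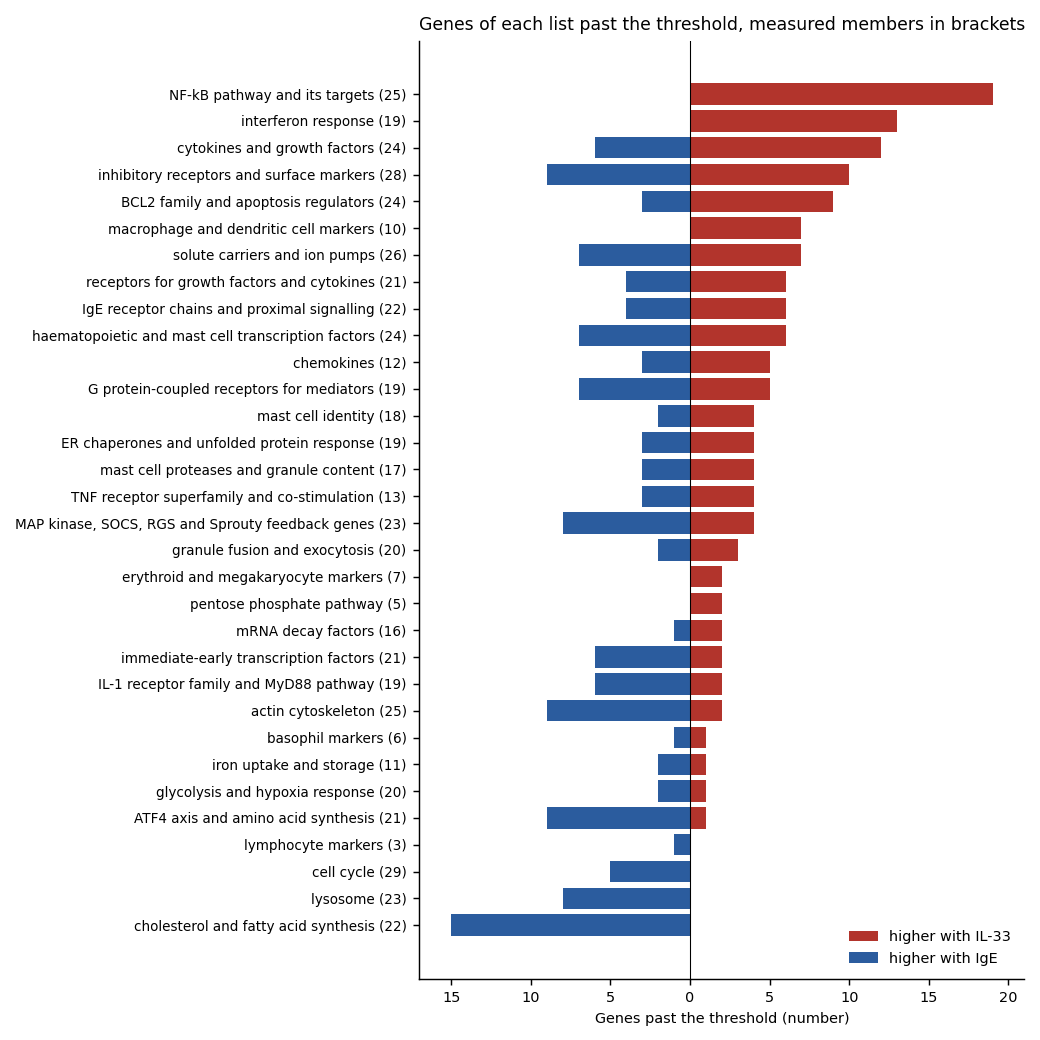
Number of genes past the threshold (horizontal axis) in each described list (vertical axis, measured genes in brackets), red to the right for higher with IL-33 and blue to the left for higher with IgE. NF-κB genes reach 19 on the IL-33 side with 0 on the other, and cholesterol and fatty acid synthesis genes 15 on the IgE side with 0 on the other. Of all genes tested 22.4% passed.

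Of 17 protease and granule content genes, 4 were higher with IL-33 and 3 with IgE (1 and 1 without the block, 2 and 3 with median scaling). The abundant Cpa3 (-0.06 ± 0.09, adjusted p = 0.711) and Cma1 (-0.01 ± 0.08, adjusted p = 0.96), both protease genes, did not pass. Cma1 was the highest of all genes tested on 4 of the 6 arrays, at 15.13, the top of the normalized range, so that its value says little about whether it differed. Hdc, the gene of the histamine-making enzyme, was at 14.15, 14.05 and 13.96 with IgE, 13.86, 13.61 and 13.64 with IL-33 and 11.48, 11.40 and 10.98 unstimulated. The stimulated groups were close together and far above rest (-0.35 ± 0.10, adjusted p = 0.0164). That call was lost without the block (adjusted p = 0.749) and without WT IgE replicate 2 or 3 or WT IL-33 replicate 1 or 2 (up to 0.133). Serpinb1a, a protease inhibitor gene, was higher with IgE (-0.97 ± 0.12, adjusted p = 8.45e-06). Of 20 exocytosis genes 3 were higher with IL-33 and 2 with IgE, and 0 passed in either direction without the block. The 3 and 2 make 25% of the list, near the 22.4% of all genes tested. Snap23 (0.02 ± 0.10, adjusted p = 0.934), a fusion protein gene, was among those that did not pass.

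Lysosome genes were higher with IgE in 8 of 23 cases and with IL-33 in 0 (2 and 0 without the block), by small amounts. The 8 make 34.8% of the list, against 22.4% of all genes tested. Asah1, the acid ceramidase gene, was at 11.60, 11.65 and 11.32 with IgE and at 10.94, 10.89 and 10.88 with IL-33 (-0.62 ± 0.10, adjusted p = 0.000121). Ctsb, a cathepsin gene, differed by -0.40 ± 0.09 (adjusted p = 0.00255). Of 25 actin cytoskeleton genes 9 were higher with IgE and 2 with IL-33 (4 and 2 without the block). Gsn, the gene of the filament-severing protein gelsolin (-1.42 ± 0.15, adjusted p = 9.47e-07), and Capg, a capping protein gene (-1.0 ± 0.11, adjusted p = 2.63e-06), were higher with IgE, and Lcp1, the gene of the bundling protein plastin, with IL-33 (1.05 ± 0.14, adjusted p = 1.33e-05). Vim, the gene of the intermediate filament protein vimentin, which the same list held, was at 10.46, 9.94 and 10.68 with IgE, 8.63, 8.44 and 9.52 with IL-33 and 9.49, 9.44 and 10.50 unstimulated (-1.50 ± 0.14, adjusted p = 2.44e-07). The IL-33 arrays were below rest in every triple.

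Of 24 BCL2 family and apoptosis regulator genes, 9 were higher with IL-33 and 3 with IgE, and 1 each passed without the block. Gadd45g, a stress response gene, was at 10.34, 10.11 and 9.90 with IgE, 10.37, 10.03 and 9.80 unstimulated and 8.97, 8.85 and 8.91 with IL-33. Only the IL-33 group stood away from rest (-1.21 ± 0.11, adjusted p = 2.11e-07). Bcl2, the survival gene, was higher with IgE (-1.33 ± 0.16, adjusted p = 6.74e-06, 0.487 without the block), and the survival kinase gene Pim2 with IL-33 (1.31 ± 0.18, adjusted p = 2.16e-05). Of 29 cell cycle genes 5 were higher with IgE and 0 with IL-33, and 0 in either direction without the block. The 5 make 17.2% of the list, below the 22.4% of all genes tested that passed. Ccnd2, a D-type cyclin gene, had the largest of these differences (-1.05 ± 0.16, adjusted p = 0.000108, 0.252 without the block).

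Transcription factor genes of blood and mast cell identity split 6 to 7 of 24 (3 and 7 with median scaling, 1 and 7 without the block). Lmo2 (-1.24 ± 0.21, adjusted p = 0.000191), Lyl1 (-0.86 ± 0.13, adjusted p = 6.76e-05) and Id2 (-1.17 ± 0.13, adjusted p = 2.19e-06) were higher with IgE. Lmo2 and Lyl1 encode partners in a stem cell complex, and their means with IL-33, 7.48 and 9.07, were below both the IgE means of 8.72 and 9.93 and the resting means of 9.18 and 10.37. Named after their values were seen, Myb (1.13 ± 0.21, adjusted p = 0.000597) and Stat5a (1.5 ± 0.27, adjusted p = 0.000437, 0.225 without the block) were higher with IL-33. Stat5a was at 11.62 and 11.61 on IL-33 arrays 1 and 2 and at 9.14 on array 3, where its IgE partner was at 9.06. Gata2, a lineage factor gene, had a mean level of 13.45 with IgE, 13.80 with IL-33 and 13.89 unstimulated. IL-33 minus IgE was 0.35 ± 0.09 for Gata2 (adjusted p = 0.00759). That call was lost without the block (0.118), with median scaling (0.115) and without WT IgE replicate 1 (up to 0.093).

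Of 18 mast cell identity genes measured, 4 were higher with IL-33 and 2 with IgE (2 and 0 without the block, 7 and 4 without the arrays numbered 3, 3 and 4 with median scaling). In the unfolded protein response list of 19 measured genes, 4 were higher with IL-33 and 3 with IgE (2 and 1 without the block, 2 and 3 with median scaling). The share past the threshold was 33.3% for the identity list and 36.8% for this one, against 22.4% of all genes tested. Ern1, the gene of the stress sensor IRE1α (1.28 ± 0.17, adjusted p = 2.39e-05), and Dnajb9, a chaperone gene (0.88 ± 0.11, adjusted p = 6.51e-06), were higher with IL-33, and Pdia4 with IgE (-0.71 ± 0.13, adjusted p = 0.000659). Xbp1 differed by 0.01 ± 0.10 (adjusted p = 0.947).

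Markers of other cell types the cultures could hold were examined beside these results. In bulk RNA, fewer cells of a type and less RNA per cell cannot be told apart. Of 19 macrophage and dendritic cell markers 10 were measured, 7 were higher with IL-33 and 0 with IgE, and 1 passed without the block. The summed log2 level of the 10 was 10.38, 10.62 and 12.57 with IgE, 11.25, 11.48 and 13.40 with IL-33 and 11.04, 10.88 and 13.15 unstimulated, so array 3 was the highest in each group. Adgre1, the gene of a macrophage surface antigen, was higher with IL-33 (1.14 ± 0.15, adjusted p = 2.33e-05), and Csf1r, the M-CSF receptor gene, did not differ past the threshold (-0.02 ± 0.18, adjusted p = 0.95). Of the listed markers with a probe, 5 were not detected on any of the 6 arrays, among them C1qb, Mrc1 and Flt3. The part of such cells in the genes higher with IL-33 was not tested. Without the arrays numbered 3 the counts were again 7 toward IL-33 and 0 toward IgE.

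None of 12 neutrophil markers passed the detection filter, and 9 of the 11 with a probe were not detected on any of the 6 arrays. Of 17 lymphocyte markers 3 were measured and 1 was higher with IgE, Nkg7, which was not detected with IL-33 or without a stimulus (at least 1.74-fold, fitted -1.19 ± 0.20, adjusted p = 0.000199). Nkg7 entered the test only through its IgE arrays. Of 6 basophil markers measured 1 was higher with IL-33 and 1 with IgE, and Mcpt8, a basophil protease gene, did not pass (-0.31 ± 0.24, adjusted p = 0.409). Of 7 erythroid and megakaryocyte markers measured 2 were higher with IL-33. The share past the threshold was 33.3% for the lymphocyte and basophil lists and 28.6% for the erythroid one, against 22.4% of all genes tested. Without the block 0 of the basophil and 0 of the erythroid and megakaryocyte markers passed.

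The same difference was then taken in ST2KO cells, whose arrays are separate from the WT ones, with 3 IL-33 and 2 IgE arrays. There IL-33 minus IgE was past the threshold toward IL-33 in 1724 genes (19.1%) and toward IgE in 1415 (15.6%). Of the 255 genes at least 2-fold higher with IgE in WT cells, 208 were also higher with IgE in ST2KO cells and 5 were higher with IL-33, and the median difference was -1.35 against -1.31 in WT. Of the 268 genes at least 2-fold higher with IL-33 in WT cells, 102 were higher with IL-33 in ST2KO cells, 44 were higher with IgE and 122 did not pass, with a median of 0.30 against 1.34 in WT. WT values of genes chosen for a wide WT difference are larger than those of other genes by that choice.

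Fxyd6 differed by -5.60 in ST2KO cells and -5.25 in WT, Scd1 by -4.32 and -3.53, and Auts2 by -2.87 and -2.90. For these 3 the genotypes did not differ past the threshold, with adjusted p of 0.486, 0.376 and 0.956 for the difference. For the NF-κB list the median was -0.25 in ST2KO cells and 1.13 in WT, and for cytokines -1.66 and 0.42. For the interferon list it was 0.67 and 0.75. Past the threshold, the difference between stimuli was larger toward IL-33 in WT cells in 5 of the 19 interferon genes and smaller in 2. For cholesterol and fatty acid synthesis the median was -1.02 in ST2KO cells and -0.58 in WT. Ccl3 was at -5.24 in ST2KO cells against 1.07 in WT, Ccl1 at -7.92 against 1.04, and Il1b was at -1.86 against 4.54 in WT.

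**Figure D5:**
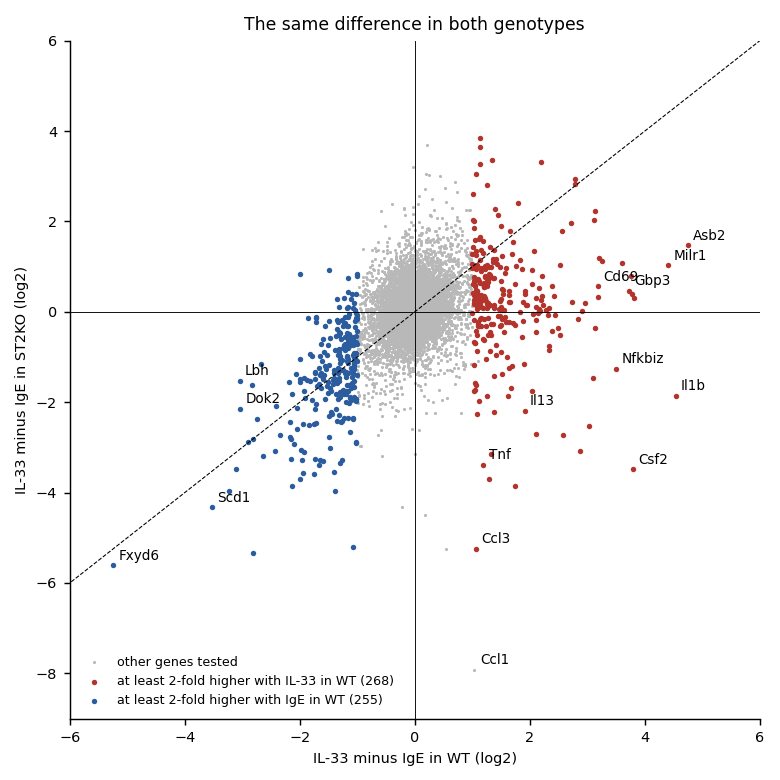
Difference IL-33 minus IgE (log2) in ST2KO cells (vertical axis) against WT cells (horizontal axis), 1 point per gene, with genes at least 2-fold apart in WT in red (268, higher with IL-33) and blue (255, higher with IgE). The dashed line marks equal differences: Fxyd6 and Scd1 lie near it, while Csf2, Il1b, Ccl3 and Ccl1 lie far below it.

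Tested directly, the difference between stimuli itself differed between genotypes in 2127 genes (23.5%), larger toward IL-33 in WT cells in 883 (9.76%) and smaller in 1244 (13.8%). Without the block 400 genes passed, and without ST2KO IgE replicate 1 or 2, which leaves 1 array in that group, 1276 and 1242. Csf2 differed by 7.28 ± 0.36 (adjusted p = 4.05e-10) and C1ql2, the gene of a complement C1q-like secreted protein, by 5.97 ± 0.42 (adjusted p = 4.42e-08). C1ql2 was at 7.72, 8.57 and 9.11 with IL-33 in WT cells and at 5.46, 6.27 and 5.03 with IgE, and no unstimulated array detected it. Among the 14 widest genes on the IgE side, Ccl7 had a narrower gap in WT cells than in ST2KO cells (-2.82 and -5.35, a difference of 2.53 ± 0.68, adjusted p = 0.0116). Lbh had a wider one (-3.04 and -1.52, a difference of -1.52 ± 0.31, adjusted p = 0.0019).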

How the data were processed

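RNA of mouse BMMCs was labelled with biotin and hybridised to Illumina arrays, per the labels' protocols. The authors deposited 1 intensity and 1 detection p-value per probe and array, with background still in (lowest intensities 71.2 to 79.5), and a table of log2 values whose columns share 1 distribution (median 4.24), so it was quantile normalized, with the background step not given in the sources used here. ST2KO IgE replicate 3 holds 10012 of 45281 probes and was left out.

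The intensities of 17 arrays were background-corrected (normexp, from the detection p-values), given an offset of 16, quantile normalized and taken to log2 (neqc, limma 3.58.1, R 4.3.3). The levels correlated with the authors' deposited log2 values at 0.9997 or more. A probe was kept if 3 or more of the 6 arrays compared gave it a detection p under 0.05. Of the 16213 kept, 14012 had 1 gene symbol in GEO's platform annotation, 6 had several and 2195 none. The probe with the highest mean stood for each of 9046 genes.

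limma was fitted to group means with a block for each replicate number in each genotype (7 residual degrees of freedom) and tested with trended eBayes and Benjamini-Hochberg adjustment. Values are log2 IL-33 minus IgE ± SE with n = 3 arrays a group. An adjusted p comes from this fit over all genes unless another setting is named beside it. The number of arrays limits the precision. The numbers come from the labels, and same-numbered WT arrays deviated together (correlations 0.517, 0.574 and 0.714), although the highest between differently numbered arrays was 0.516, level with that of the arrays numbered 1. A bound for a gene not detected in 1 group uses the lowest detected level on each of its arrays. In 1 simulation of 9046 genes, 100 were changed by a log2 of 1 and 100 by a log2 of 2. Of these 93% and 100% were recovered, with 5.4% of calls false. The simulated noise was independent, normal and laid on the same block model. It thus met the assumptions of the fit, and the 5.4% is not an error rate of the real arrays.

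The genes named were the 14 largest differences each way with all 3 pairs in that direction (clone and model names left out), up to 4 members of each described list with the smallest adjusted p and up to 2 with the highest mean that did not pass, 18 fixed genes, and up to 6 with the smallest adjusted p for the genotype difference. A list was described where at least 3 members passed, or 2 where few were measured, and lists of cell type markers always were. Left out by this rule were calcium, calcineurin and NFAT, aminoacyl-tRNA synthetase, ribosome biogenesis, Myc, eicosanoid, respiratory chain and housekeeping genes. Of 14 calcium, calcineurin and NFAT genes measured 1 was higher with IL-33 and 1 with IgE. Members and lists were chosen with earlier results of these data known. Alternatives were the fit without the block, fewer arrays, other background, scaling, filter, probe and variance choices, the authors' values, and leaving out arrays. Basophils were examined only through their markers.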

Additional observations from a re-analysis of the deposited data

Results flagged for a closer look

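The difference between IL-33 and IgE itself differed between WT and ST2KO mast cells in 2127 genes (limma interaction, adjusted p under 0.05). The genes below were picked out because they are among them, and each value is WT minus ST2KO of the log2 difference IL-33 minus IgE, with 3 arrays a group and 2 for ST2KO IgE.

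Among the widest differences toward IL-33 in WT cells the values were Csf2 7.28, Il1b 6.40, Nfkbiz 4.76, Cxcl16 3.50, Tnfaip2 3.38, Milr1 3.37, Asb2 3.27, Gbp3 3.26, Cd72 2.96, Mylk 2.86, Cd69 2.62, Rassf4 2.52, Rsad2 2.13 and D17H6S56E-5 2.0. Asb2 was still higher with IL-33 in ST2KO cells (1.48), while Csf2 stood at -3.49 there. The chemokine genes had Ccl1 at 8.96, Ccl3 at 6.31, Ccl4 at 4.69 and Ccl7 at 2.53. The cytokine genes had Tnf at 4.58, Il13 at 4.10, Il6 at 2.77 and Il4 at 0.71.

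C1ql2 was at 5.97, Egr2 at 5.79, Nfkb2 at 3.05, Egr1 at 1.71, Tfrc at 1.54 and Hdc at 1.19. Ccl1, Ccl4 and Egr2 had not passed between the stimuli in WT cells, and their ST2KO differences were -7.92, -4.50 and -5.26. Negative values, a gap toward IgE that was wider in WT cells, were found for Lbh (-1.52), Rpp25 (-1.51), Tm6sf1 (-1.20) and Dok2 (-0.89).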

How the results depend on the processing

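Without the replicate block 581 genes passed, 284 toward IL-33 and 297 toward IgE, with 169 and 151 at least 2-fold apart, and 400 passed between genotypes. Without background correction 129 and 89 were at least 2-fold apart. Median scaling gave 609 genes toward IL-33 and 1447 toward IgE. With detection p under 0.01 on all 6 arrays 213 genes were at least 2-fold higher with IL-33 and 160 with IgE. Leaving out arrays gave 1251 to 2430 genes in all, 601 to 1118 toward IL-33, 645 to 1312 toward IgE, 242 to 318 and 232 to 312 at least 2-fold apart, and 1242 to 2976 between genotypes. Without the arrays numbered 1 the counts were 606 and 645, and without those numbered 2 they were 601 and 662. A lone array left in a group was assumed to vary like the others. The cause of these moves was not tested.

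The other alternatives stayed within 1.5 times: 1591 genes with the 9 WT arrays, 1482 with the 6 arrays compared, 1727 with no detection filter and 2012 with the authors' values. Genes shared with the 2030 had the same direction in each setting. Over the 239 genes named or listed for naming, 185 values in 70 genes lost the threshold and 36 in 16 genes gained it. Of the genes past the threshold in the fit with the block, 0 values changed sign. Sign changes of the other genes were not counted, and some had them, such as Myd88 (-0.18 to 0.04). Among the fixed genes, leaving out 1 WT array ended the calls of Ccl3, Hdc, Tnf and Gata2 and gave one to Ccl1 and Egr2. Probes near background give compressed differences.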
